A study of Mus musculus with 3 samples.

Results

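Cells take up, store, release, and export iron with a small set of proteins, and 8 of their genes were followed here in healing bone, out of 32285 genes in the data. The genes were *Tfrc*, *Slc11a2*, and *Slc39a14* for import, *Fth1* and *Ftl1* for storage, *Ncoa4* for release from the store, *Hmox1* for breakdown of heme, and *Slc40a1* for export. They were chosen from measured values of these same cells, since *Slc40a1* and *Tfrc* were among the leading genes of stromal and chondrocyte clusters, so the levels of these 2 genes across cell classes are a description and carry no test. The cells came from the callus of C57BL/6 mice with a femoral fracture and no treatment, at day 7, day 10, and day 14. The callus was cleaned of marrow and digested with collagenase, and live cells that lacked CD45, CD31, and TER119 in flow sorting were captured in droplets. Each day gave 1 library, and the number of animals behind a library is not given in the sources used here, so day, animal, and library cannot be told apart.

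Transferrin receptor 1, encoded by *Tfrc*, brings transferrin-bound iron into the cell by endocytosis, and ferroportin, encoded by *Slc40a1*, is the known exporter of iron from mammalian cells. Ferritin, a shell of heavy and light chains, keeps the surplus. When iron is scarce, iron regulatory proteins bind a hairpin in the mRNAs called the iron-responsive element (IRE): in the 5′ UTR this blocks translation, and in the 3′ UTR of *Tfrc* it protects the mRNA from decay. Erythroid precursors need large amounts of iron for heme, and macrophages return the iron of old red cells to the blood. Chondrocytes and osteoblasts need iron for the prolyl hydroxylases that modify collagen.

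The IRE sequences are printed because they show which members carry the element and on which side of the coding sequence it lies. A motif was searched on the transcript strand of the GENCODE M21 transcripts of GRCm38. It was a C, 5 bases of a stem, the loop CAGTGN, and 5 bases that pair with the stem, with at least 4 pairs of 5, G-T pairs included. It was found in 5 of the 8 members and in 1.01% of the 20853 genes with a 5′ UTR and 4.77% of the 21127 genes with a 3′ UTR. No match was found in *Slc39a14*, *Hmox1*, or *Ncoa4*. In the lines that follow, the loop is in capitals, and 12 bases on each side are shown.
*Slc40a1*, 5′ UTR, exon 1, chr1:45925464-45925493, minus strand: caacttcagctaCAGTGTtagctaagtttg
*Fth1*, 5′ UTR, chr19:9982732-9982761, plus strand: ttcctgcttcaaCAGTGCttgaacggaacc
*Ftl1*, 5′ UTR, exon 1, chr7:45459778-45459807, minus strand: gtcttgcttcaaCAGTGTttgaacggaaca
*Tfrc*, 3′ UTR, exon 19, motif 1, chr16:32631219-32631248, plus strand: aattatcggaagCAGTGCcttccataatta
*Tfrc*, 3′ UTR, exon 19, motif 2, chr16:32631598-32631627, plus strand: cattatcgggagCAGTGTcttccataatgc
*Tfrc*, 3′ UTR, exon 19, motif 3, chr16:32631663-32631692, plus strand: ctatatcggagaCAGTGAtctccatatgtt
*Tfrc*, 3′ UTR, exon 19, motif 4, chr16:32631710-32631739, plus strand: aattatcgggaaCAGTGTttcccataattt
*Slc11a2*, 3′ UTR, exon 16, chr15:100395152-100395181, minus strand: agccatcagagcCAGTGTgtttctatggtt
All but the *Slc11a2* motif had 5 pairs of 5. The 4 *Tfrc* motifs lie within 1 exon, and the *Fth1* and *Ftl1* motifs share the bases on both sides of the loop that form the stem. A match is a description of letters and does not show that a protein binds there.

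Cells were grouped by single markers. Among cells within the study's limits (500 to 5000 genes, at most 10% mitochondrial and 5% hemoglobin unique molecular identifiers, UMIs) and with no UMI of *Ptprc*, which encodes CD45, a cell was called high for a marker when it had at least 3 UMIs of it and a level at or above the 95th percentile of such cells at day 10 and day 14. *Aspn* (asporin) stood for *Postn*+ osteoprogenitors, *Matn4* (matrilin 4) and *Cnmd* (chondromodulin) for cartilage, *Col10a1* (type X collagen) for hypertrophic cartilage, and *Ifitm5* for osteoblasts. At day 10 and day 14, respectively, the *Aspn*-high class held 228 and 572 cells, the *Matn4*-high class 271 and 477, the *Cnmd*-high class 522 and 209, the *Col10a1*-high class 263 and 549, and the *Ifitm5*-high class 197 and 494. Each class is the upper end of a range and not a cell type: at day 10, 336 cells lay less than 1.25-fold above the *Cnmd* cut and 526 less than 1.25-fold below it, against 9 and 21 for *Ifitm5*. Of the cells high for any marker, 94 at day 10 and 73 at day 14 were high for more than 1, most of them for *Matn4* and *Cnmd* (81 and 48 cells), and these went to the marker furthest above its cut.

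Marker lists were summed in each class. The list that goes with a class holds the gene that chose it, so its sum is in part fixed by the cut. Levels are in counts per 1000000 UMIs (CPM), after summing over the cells of 1 class and day. The osteoprogenitor list summed to 23492 and 20508 CPM in *Aspn*-high cells, the chondrocyte list to 66110 and 64166 CPM in *Cnmd*-high cells, the hypertrophic list to 48087 and 49285 CPM in *Col10a1*-high cells, and the osteoblast list to 70696 and 64162 CPM in *Ifitm5*-high cells. *Aspn* alone was 10470 CPM in *Aspn*-high cells at day 10. From the lowest to the highest tertile of the marker at day 10, *Col10a1* alone was 31398, 43236, and 66616 CPM. *Cnmd* was 4956, 5631, and 7362 CPM, and *Ifitm5* 276, 727, and 2096 CPM. The hypertrophic sum was thus largely *Col10a1* itself. In *Matn4*-high cells, the chondrocyte list summed to 37705 CPM at day 10 and 19494 CPM at day 14, with 4040 and 5404 CPM of the osteoprogenitor list beside it. *Col10a1*-high cells also had 35232 and 26506 CPM of the chondrocyte list and 24243.5 and 16501.5 CPM of the osteoblast list. *Ifitm5*-high cells also had 11778 and 7801 CPM of the chondrocyte list. Markers of neutrophils, macrophages, and erythroid cells were low over the 5 classes and both days. The 5 neutrophil markers summed to 0.812 to 36.2 CPM, the 6 macrophage markers to 0.451 to 3.70 CPM, and the 6 erythroid markers to 0.431 to 37.9 CPM, the last value in *Matn4*-high cells at day 10. The 4 B lineage markers summed to 49.2 to 227 CPM, against 240.0 CPM in the *Ptprc*-positive cells of day 7, and nearly all of it was *Ebf1*, a transcription factor (49.0 to 227 CPM), while *Cd79b* was at 0 in 8 of the 10 classes and days.

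The day 7 library went against its sort. Of its 7017 cells within the limits, 6570 (93.6%) held a UMI of *Ptprc*, against 6 of 6593 (0.0910%) at day 10 and 173 of 9853 (1.76%) at day 14, and only 25 cells passed a marker cut, so no marker class was compared at day 7. Its *Ptprc*-positive cells were read as blood cells, as were 127 hemoglobin-rich cells, with more than 5% hemoglobin UMIs and within the other limits. The neutrophil markers summed to 294944 CPM in the *Ptprc*-positive cells of day 7, and the erythroid markers to 574076 CPM in the hemoglobin-rich cells. Libraries shared 29 to 42 barcodes, at most 0.461% of a library. Median depth was 12844 to 19517 UMIs per cell in the marker classes, 5045 in the *Ptprc*-positive cells of day 7, and 12918 in the hemoglobin-rich cells.

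Each level has an exact Poisson 95% interval, and a ratio of levels an exact binomial 95% interval. These intervals cover counting error only, and without replicate libraries no p-value was computed. The size rule was a 2-fold difference. The library reads 3′ ends, so levels were compared between cells and not between genes.

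*Tfrc* was highest in the *Matn4*- and *Cnmd*-high classes. In *Matn4*-high cells its level was 90.8 CPM (95% CI, 81.3–101) at day 10 and 105 CPM (95% CI, 97.1–113) at day 14. In *Cnmd*-high cells it was 47.0 CPM (95% CI, 42.6–51.7) and 55.5 CPM (95% CI, 48.5–63.3). The other classes lay far lower, at 8.44 and 13.3 CPM in *Aspn*-high cells, 9.03 and 6.25 CPM in *Col10a1*-high cells, and 11.6 and 23.9 CPM in *Ifitm5*-high cells. The order was thus *Matn4*-high, then *Cnmd*-high, then the rest on both days, and among the rest only *Ifitm5*-high cells at day 14 stood apart from the next level by their interval. That level rested on the cells nearest the *Ifitm5* cut: the lowest tertile of *Ifitm5* had 39.6 CPM (95% CI, 32.8–47.3; 121 of the 192 UMIs), and the middle and highest had 13.8 and 14.6 CPM, near the 13.3 CPM of *Aspn*-high cells. Against *Aspn*-high cells of the same library, *Matn4*-high cells had 10.8-fold and 7.92-fold more *Tfrc*, with a log2 ratio of 3.43 (95% CI, 2.85–4.06) at day 10 and 2.99 (95% CI, 2.69–3.29) at day 14. The day 10 reference was 26 UMIs, and over 9 other ways of processing that log2 ratio ran from 2.60 to 5.38. *Alas2*, which erythroid cells use to start heme synthesis, had no UMI in *Matn4*-high cells on either day.

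The *Tfrc* pattern held in the share of cells. With every cell thinned to 2000 UMIs, *Tfrc* was seen in 13.5% and 14.8% of *Matn4*-high cells and in 8.37% and 12.1% of *Cnmd*-high cells. In the 3 other classes the share was 0.441% to 2.44%. Free RNA can give a low share in every cell type, and its part in these shares was not tested. Without thinning, 43.2% and 42.6% of *Matn4*-high cells and 7.89% and 11.4% of *Aspn*-high cells had a *Tfrc* UMI.

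*Slc11a2*, which encodes the divalent metal transporter DMT1 of the endosome, was low and differed little. Its level was 9.47 to 15.7 CPM in 4 of the classes on both days, and neighbors in that order overlapped in their intervals. *Col10a1*-high cells were lowest, at 6.02 CPM (95% CI, 3.93–8.82) at day 10 and 4.85 CPM (95% CI, 3.53–6.48) at day 14, where the log2 ratio to *Aspn*-high cells was -1.18 and -1.41. These levels rest on 26 and 45 UMIs, and with cells thinned to 2000 UMIs the ratio at day 14 was 0.07.

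*Slc39a14* encodes ZIP14, a plasma membrane importer of iron that is not bound to transferrin, and of zinc and manganese. It was lowest in *Aspn*-high cells, at 51.0 CPM (95% CI, 43.3–59.6) and 46.2 CPM (95% CI, 41.7–51.1). It stood at 98.8 and 93.8 CPM in *Cnmd*-high cells, 111 and 86.9 CPM in *Col10a1*-high cells, and 117 and 90.2 CPM in *Ifitm5*-high cells. These 3 classes thus had 1.88-fold to 2.29-fold more of it than *Aspn*-high cells, near the 2-fold rule on either side. *Matn4*-high cells lay between, at 83.4 CPM at day 10 and 55.4 CPM (95% CI, 49.7–61.5) at day 14. The day 14 interval overlapped the *Aspn*-high intervals of both days. The log2 ratio to *Aspn*-high cells of day 14 was 0.26 (95% CI, 0.05–0.47). The importers therefore divided the cells differently. *Col10a1*- and *Ifitm5*-high cells were lower than *Matn4*- and *Cnmd*-high cells for *Tfrc* and high for *Slc39a14*. *Cnmd*-high cells were high for both.

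**Figure D1:**
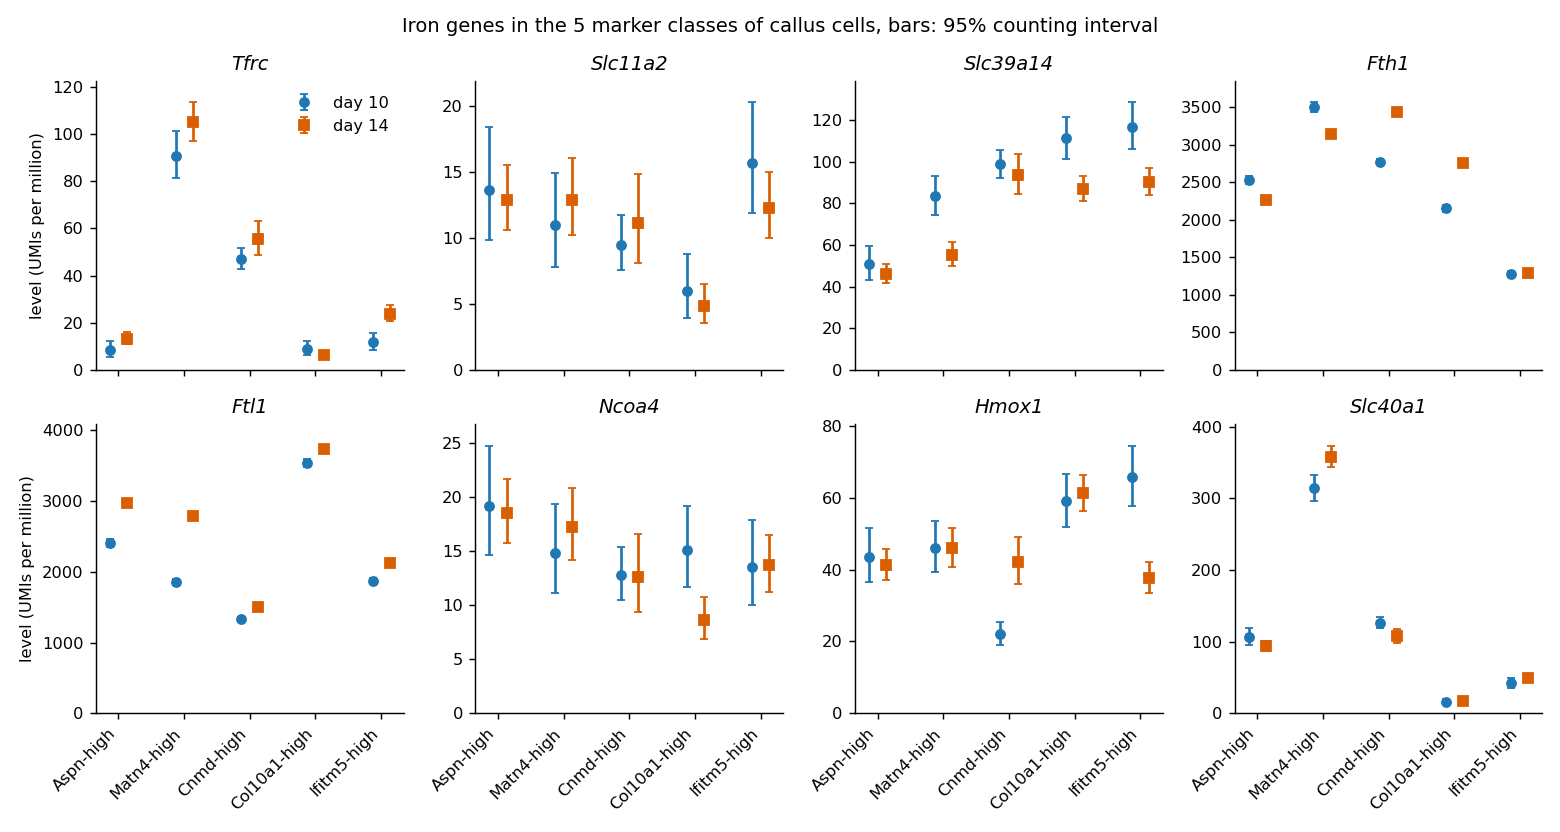
Level of each member in CPM (linear axis from 0) in the 5 marker classes at day 10 (circles) and day 14 (squares), with exact Poisson 95% intervals over 1 library per day. *Tfrc* and *Slc40a1* are highest in *Matn4*-high cells (105 and 358 CPM at day 14), *Ftl1* in *Col10a1*-high cells, and *Fth1* is lowest in *Ifitm5*-high cells.

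The ferritin chains were by far the most abundant members and moved apart from each other. *Fth1* encodes the heavy chain, which oxidizes iron, and *Ftl1* the light chain, which helps form the mineral core. *Fth1* was highest in *Matn4*-high cells at day 10 (3504 CPM; 95% CI, 3444–3566) and in *Cnmd*-high cells at day 14 (3439.7 CPM; 95% CI, 3383–3497). It was lowest in *Ifitm5*-high cells, at 1280.3 and 1297 CPM, a log2 ratio of -0.98 and -0.81 to *Aspn*-high cells, which had 2529 and 2268 CPM. *Ftl1* had another order. *Col10a1*-high cells led with 3542 and 3744 CPM, and *Cnmd*-high cells were last with 1337 and 1501 CPM, a log2 ratio of -0.85 and -0.98 to *Aspn*-high cells (2408 and 2968 CPM). No ferritin difference between a class and *Aspn*-high cells passed the 2-fold rule as processed here, and the counting intervals, resting on 4732 to 34766 UMIs, were narrow. The lower *Fth1* of *Ifitm5*-high cells passed it at day 10 in 4 of 9 other ways of processing, down to a log2 ratio of -1.73, and at day 14 in 1, at -1.37. The lower *Ftl1* of *Cnmd*-high cells passed it at day 14 in 1 of 9, at -1.01.

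The balance of the chains differed between classes. *Cnmd*-high cells had 2.08 UMIs of *Fth1* per UMI of *Ftl1* (95% CI, 2.03–2.12) at day 10 and 2.29 (95% CI, 2.22–2.36) at day 14. *Matn4*-high cells followed, with 1.89 (95% CI, 1.83–1.95) and 1.13 (95% CI, 1.10–1.15). *Aspn*-high cells had 1.05 and 0.764. The ratio was 0.608 (95% CI, 0.593–0.624) and 0.735 (95% CI, 0.724–0.747) in *Col10a1*-high cells and 0.685 and 0.611 in *Ifitm5*-high cells. *Cnmd*-high cells thus had the highest ratio on both days, and the lowest was in *Col10a1*-high cells at day 10 and in *Ifitm5*-high cells at day 14. A ratio of UMIs is compared between classes here and does not give the ratio of the chains in a cell. Both ferritin genes have near-identical copies in the genome that can take or give reads, so their absolute levels are uncertain. The annotated copy *Ftl1-ps1* was counted at 9.03 to 46.1 CPM in the classes and blood cells.

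**Figure D2:**
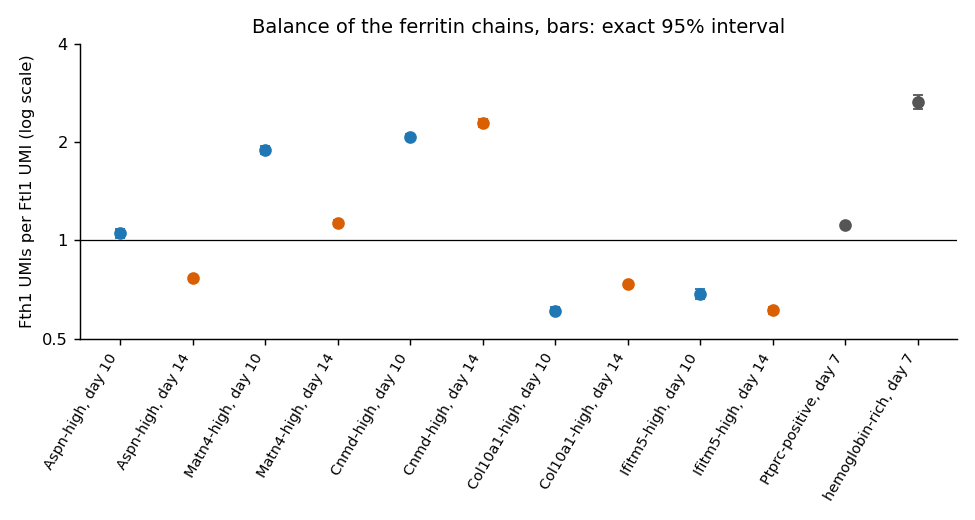
UMIs of *Fth1* per UMI of *Ftl1* (log axis) in each class and day and in the blood cells of day 7, with exact binomial 95% intervals, where 1 library stands behind each point and colors mark the day (gray is day 7). *Cnmd*-high cells (2.08 and 2.29) and hemoglobin-rich cells (2.65) are highest, and *Col10a1*- and *Ifitm5*-high cells are below 1 on both days.

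*Ncoa4*, whose product carries ferritin to the lysosome so that its iron is freed, was low in all 5 classes. Levels ran from 12.6 to 19.2 CPM except in *Col10a1*-high cells at day 14, with 8.61 CPM (95% CI, 6.83–10.7). There the log2 ratio to *Aspn*-high cells was -1.10 (95% CI, -1.51 to -0.71), against -0.35 (95% CI, -0.88 to 0.19) at day 10, and in 6 of 9 other ways of processing the day 14 value was under 2-fold.

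*Hmox1* encodes heme oxygenase 1, the stress-induced enzyme that opens the heme ring and frees its iron. It stood at 59.1 CPM (95% CI, 52.0–66.8) and 61.3 CPM (95% CI, 56.3–66.5) in *Col10a1*-high cells. *Aspn*- and *Matn4*-high cells had 41.3 to 46.1 CPM. *Cnmd*-high cells had 22.1 CPM (95% CI, 19.1–25.4) at day 10 and 42.2 CPM (95% CI, 36.1–49.0) at day 14, whereas *Ifitm5*-high cells had 65.7 CPM (95% CI, 57.7–74.6) and 37.8 CPM (95% CI, 33.6–42.3). The 2 intervals of *Col10a1*-high cells overlapped. The *Cnmd*-high cells were higher at day 14, but the log2 ratio of 0.93 between the days was 0.08 in thinned cells. The *Ifitm5*-high cells were lower at day 14, but their log2 ratio of -0.80 was 0.91 with the marker cut at the 98th percentile. From the lowest to the highest tertile of *Ifitm5*, *Hmox1* was 101, 67.8, and 22.6 CPM at day 10 and 35.0, 34.6, and 43.5 CPM at day 14.

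*Slc40a1* spread widely among the callus classes. *Matn4*-high cells had 314 CPM (95% CI, 296–333) at day 10 and 358 CPM (95% CI, 344–373) at day 14. *Cnmd*-high cells had 126 and 107 CPM, and *Aspn*-high cells 107 and 93.5 CPM. *Ifitm5*-high cells had 42.2 and 48.6 CPM, and *Col10a1*-high cells only 15.98 CPM (95% CI, 12.4–20.2) and 16.6 CPM (95% CI, 14.1–19.4). The order was the same on both days, and each class stood apart from the next by its interval except *Cnmd*- and *Aspn*-high cells, whose intervals overlapped on both days. *Matn4*-high cells had 2.94-fold and 3.83-fold more than *Aspn*-high cells, and *Col10a1*-high cells 6.69-fold and 5.64-fold less. Averaged over the days, the log2 ratio of *Cnmd*-high to *Aspn*-high cells was 0.22 (95% CI, 0.10–0.34) for *Slc40a1* and 2.27 (95% CI, 1.94–2.60) for *Tfrc*.

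The share of cells with *Slc40a1* at 2000 UMIs was 37.8% (95% CI, 32.0%–43.9%) and 41.2% (95% CI, 36.8%–45.8%) in *Matn4*-high cells and 20.04% and 19.9% in *Cnmd*-high cells. It was 12.8% and 13.9% in *Aspn*-high cells, 6.12% and 6.91% in *Ifitm5*-high cells, and 3.47% and 2.77% in *Col10a1*-high cells. The class with most *Slc40a1* was thus also the class with most *Tfrc*. The importers *Slc39a14* (83.4 and 55.4 CPM) and *Slc11a2* (11.0 and 12.9 CPM) were not highest in *Matn4*-high cells on either day.

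**Figure D3:**
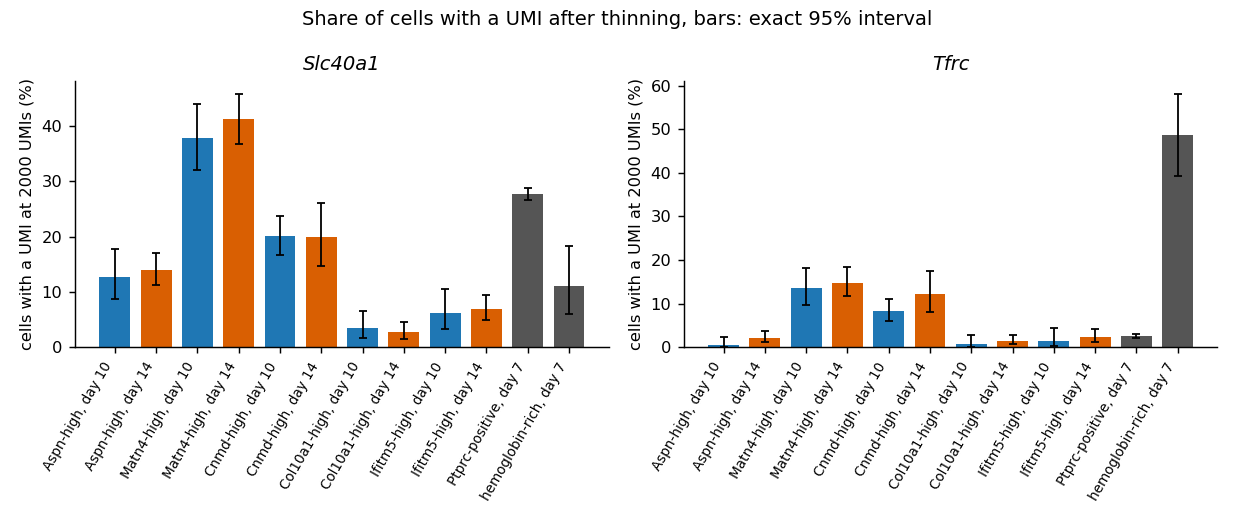
Percentage of cells with at least 1 UMI of *Slc40a1* (left) and *Tfrc* (right) after each cell was thinned to 2000 UMIs, with exact binomial 95% intervals, by class and day, where gray bars are day 7 blood cells. *Matn4*-high cells lead for *Slc40a1* (37.8% and 41.2%) and hemoglobin-rich cells for *Tfrc* (48.7%).

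*Slc40a1* and *Tfrc* were also seen in the same cells. At 2000 UMIs, 20 of 267 *Matn4*-high cells of day 10 and 40 of 473 of day 14 had a UMI of both. *Slc40a1* was seen in 55.6% (95% CI, 38.1%–72.1%) and 57.1% (95% CI, 44.7%–68.9%) of the cells with *Tfrc*. In the cells without *Tfrc* it was seen in 35.1% (95% CI, 28.9%–41.6%) and 38.5% (95% CI, 33.7%–43.4%). *Cnmd*-high cells had the same direction, with 34.9% against 18.7% at day 10 and 36.0% against 17.7% at day 14. Cells of 1 library are not replicates, and the intervals overlapped at day 10 and in *Cnmd*-high cells. Whether the genes are linked within a cell, apart from differences in cell makeup inside a class, was not tested.

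*Tfrc* is known to be high in dividing cells, and the classes were split by whether a cell had a UMI of *Mki67*, *Top2a*, *Ccnb2*, or *Cdk1*. In *Matn4*-high cells, the 38 cells of day 10 with such a UMI had 46.5 CPM of *Tfrc* (95% CI, 30.4–68.2) and the other 233 had 98.8 CPM (95% CI, 88.1–111). At day 14 the values were 89.5 CPM (56 cells) and 108 CPM (421 cells). In *Cnmd*-high cells they were 38.5 and 49.3 CPM at day 10 and 53.5 and 56.2 CPM at day 14. *Tfrc* was thus not higher in the *Matn4*- and *Cnmd*-high cells with cycling UMIs on either day. The values lay the other way in *Col10a1*-high cells at day 10, with 20.6 CPM (95% CI, 10.3–36.9; 11 UMIs) against 7.40 CPM (95% CI, 4.92–10.7). They also did at day 14 in *Ifitm5*-high (34.7 and 22.3 CPM), *Aspn*-high (16.5 and 12.7 CPM), and *Col10a1*-high cells (7.46 and 6.13 CPM). At day 10, *Aspn*-high (4.56 and 9.09 CPM) and *Ifitm5*-high cells (7.91 and 12.2 CPM) were lower with a cycling UMI. The intervals overlapped in each of these pairs. *Slc40a1* in *Matn4*-high cells was 150.3 CPM (95% CI, 119.9–186) with a cycling UMI and 343 CPM (95% CI, 323–365) without at day 10, and 347 and 360.3 CPM at day 14.

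Levels also varied with the strength of the marker inside a class. From the lowest to the highest tertile of *Ifitm5*, *Fth1* was 1669, 1235, and 882 CPM at day 10 and 1733, 1173, and 913 CPM at day 14. *Slc40a1* followed with 56.0, 51.5, and 16.5 CPM, and 75.6, 40.0, and 25.6 CPM. *Ftl1* did not follow: it was 1924, 1787, and 1892 CPM, and 2167, 2040, and 2146 CPM. In the osteoblast class, the heavy chain and the exporter were thus lower where the marker was higher, and the light chain was not. In *Matn4*-high cells of day 14, *Slc40a1* was 289 CPM (95% CI, 268–312) in the lowest tertile of *Matn4*, 331 CPM in the middle, and 480.2 CPM (95% CI, 449–513) in the highest, and at day 10 the values of 284, 324, and 338 CPM had overlapping intervals. In *Col10a1*-high cells, *Slc40a1* was 22.0, 13.7, and 11.3 CPM at day 10 and 21.2, 17.4, and 10.2 CPM at day 14.

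The counts of members past 2-fold are read against all genes with a mean level of at least 5 CPM, and all 8 members passed that filter in every comparison. *Matn4*-high cells differed from *Aspn*-high cells by over 2-fold for 15.6% of genes at day 10 and 7.87% at day 14, and the members past it were *Slc40a1* and *Tfrc*, both higher, on both days. For *Cnmd*-high cells the shares were 23.1% and 26.0%, with *Tfrc* past it on both days and *Slc39a14* at day 14. At day 10 the *Slc39a14* value (0.95) stayed under it in only 1 of 9 other ways of processing. For *Col10a1*-high cells they were 28.8% and 28.9%. Past it at day 10 were *Slc39a14*, higher, and *Slc40a1* and *Slc11a2*, lower. At day 14 they were *Slc40a1*, *Tfrc*, *Slc11a2*, and *Ncoa4*, all lower, and the higher *Slc39a14* (0.91) stayed under it in 4 of 9 other ways of processing. For *Ifitm5*-high cells the shares were 23.1% and 22.3%, and the members were *Slc39a14*, higher, and *Slc40a1*, lower, at day 10, and none at day 14. At day 14 the lower *Slc40a1* (-0.94) was past it in 5 of 9 other ways of processing and the higher *Slc39a14* (0.97) in 4 of 9, and the *Tfrc* value of *Col10a1*-high cells (-1.09) was under it in 6 of 9. Nothing is read from the calls of *Slc40a1* and *Tfrc*, which make up 10 of the 16, since these genes were chosen for such differences. As processed here, the 6 other members gave 6 calls among 48 values (12.5%), within the range over all genes. The median log2 ratio over the 8 members ran from -0.40 (*Col10a1*-high, day 14) to 0.28 (*Matn4*-high, day 10), and over all genes from -0.39 to -0.11. The member medians include *Slc40a1* and *Tfrc*, so nothing is read from them either.

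**Figure D4:**
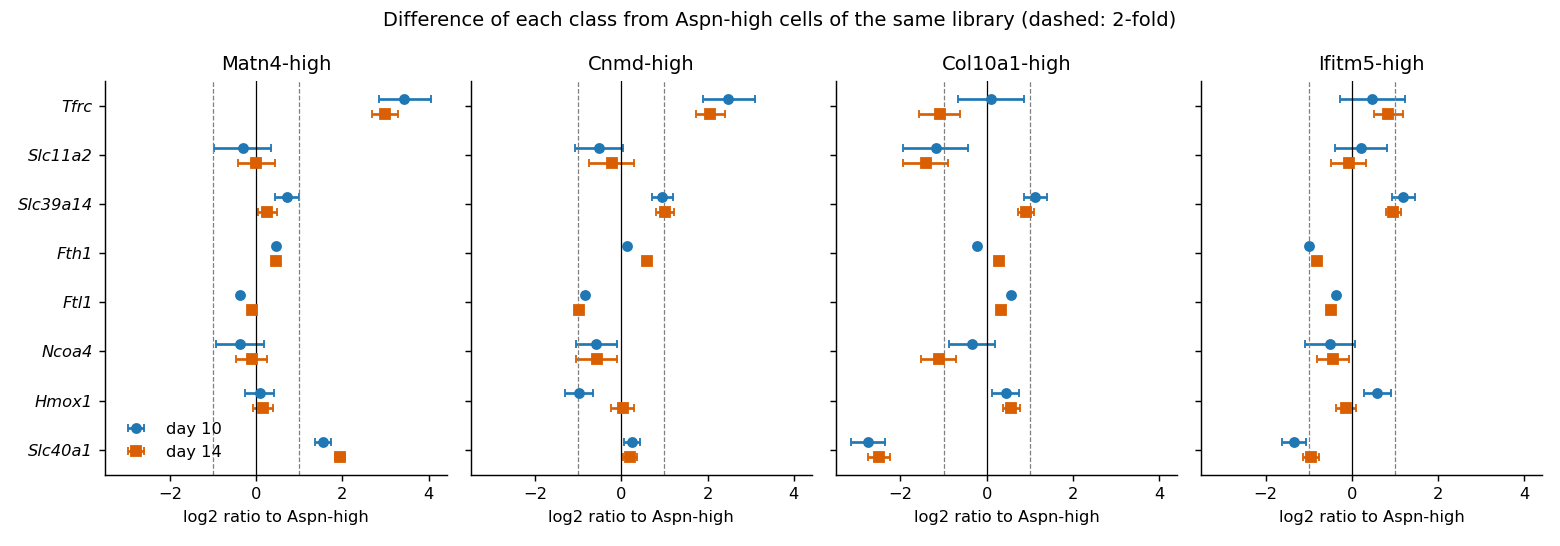
Log2 ratio of the level in each class to that in *Aspn*-high cells of the same library at day 10 (circles) and day 14 (squares), with exact 95% counting intervals and dashed lines at 2-fold. *Tfrc* lies past 2-fold in *Matn4*- and *Cnmd*-high cells (2.07 to 3.43) and *Slc40a1* is -2.74 and -2.50 in *Col10a1*-high cells, while *Fth1*, *Ftl1*, and *Hmox1* stay within the dashed lines.

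Between day 10 and day 14 the members differed little within a class. All genes passed 2-fold in 3.92% of cases in *Aspn*-high cells, 4.68% in *Matn4*-high cells, 2.19% in *Cnmd*-high cells, 1.67% in *Col10a1*-high cells, and 2.36% in *Ifitm5*-high cells, and of the 40 member values 1 did. That value was *Tfrc* in *Ifitm5*-high cells, most of whose day 14 UMIs came from the lowest *Ifitm5* tertile, with a log2 ratio of day 14 to day 10 of 1.04 (95% CI, 0.55–1.55), and it was under 2-fold in 6 of 9 other ways of processing. Next in size were *Hmox1* in *Cnmd*-high cells (0.93; 95% CI, 0.63–1.24), *Ncoa4* in *Col10a1*-high cells (-0.81; 95% CI, -1.30 to -0.31), *Hmox1* in *Ifitm5*-high cells (-0.80; 95% CI, -1.05 to -0.55), and *Tfrc* in *Aspn*-high cells (0.65; 95% CI, 0.02–1.33). As processed here, *Ftl1* was higher at day 14 in all 5 classes, by a log2 ratio of 0.08 in *Col10a1*-high cells to 0.59 in *Matn4*-high cells. The *Col10a1*-high ratio kept its sign in 8 of 9 other ways of processing, with a lowest value of -0.02. *Slc39a14* was lower at day 14 in all 5, with log2 ratios from -0.07 in *Cnmd*-high cells to -0.59 in *Matn4*-high cells. The interval for *Slc39a14* included 0 in *Aspn*- and *Cnmd*-high cells.

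In the blood cells of day 7 the members had another profile. *Ptprc*-positive cells had 135 CPM of *Slc40a1* (95% CI, 132–138), above every marker class but *Matn4*-high, though its interval met that of *Cnmd*-high cells at day 10. *Ncoa4* was at 151 CPM (95% CI, 148–155), against 8.61 to 19.2 CPM in the marker classes, and was seen at 2000 UMIs in 22.7% of cells against 1.75% to 4.85%. *Slc39a14* (4.47 CPM) and *Slc11a2* (1.87 CPM) were below every marker class. The *Ptprc*-positive cells of day 14 had 42.7 CPM of *Ncoa4*, 50.2 CPM of *Slc40a1*, and 42.7 CPM of *Slc39a14*, with 177956 CPM of the neutrophil markers but also 7628 CPM of the chondrocyte markers, against 602 CPM at day 7.

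The 127 hemoglobin-rich cells had the highest *Tfrc* of all, 667 CPM (95% CI, 627–709) against 21.1 CPM (95% CI, 19.9–22.4) in *Ptprc*-positive cells of the same library. The ratio was 31.6-fold, a log2 ratio of 4.98 (95% CI, 4.86–5.11), and *Tfrc* was seen at 2000 UMIs in 48.7% (95% CI, 39.4%–58.1%) of these cells against 2.55%. *Slc11a2*, which moves the iron of transferrin out of the endosome, was 19.0-fold higher, at 35.5 CPM (95% CI, 26.7–46.2). Its log2 ratio of 4.25 was 1.44 with no limits on genes per cell in either group. *Ncoa4* was at 158 CPM and *Fth1* at 3753 CPM, with 2.65 UMIs of *Fth1* per UMI of *Ftl1* (95% CI, 2.53–2.79) against 1.11 in *Ptprc*-positive cells. *Slc40a1* was lower, at 51.6 CPM (95% CI, 40.9–64.2). In this comparison 65.1% of all genes passed 2-fold and 3 of the 8 members did, *Tfrc* and *Slc11a2* higher and *Slc40a1* lower. The median over all genes was a log2 ratio of -1.14, and 0.37 over the members.

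Hemoglobin UMIs took a median of 56.9% of a hemoglobin-rich cell, which lowers the CPM of every other gene. Scaled to the other UMIs alone, these cells had 1559 CPM of *Tfrc* (95% CI, 1465–1657), 82.9 CPM of *Slc11a2*, 8769 CPM of *Fth1*, 3304 CPM of *Ftl1*, 369 CPM of *Ncoa4*, and 121 CPM of *Slc40a1* (95% CI, 95.6–150.1). The ratio of *Slc40a1* to *Ptprc*-positive cells then depended on the scaling. With mitochondrial, ribosomal, hemoglobin, and collagen genes left out of the total, its log2 ratio was -0.05 in place of -1.39, and that of *Ftl1* 0.91 in place of -0.43. By hemoglobin share, the 55 cells with 5% to 50% had 1269 CPM of *Tfrc* and 164 CPM of *Ncoa4* on this scale, and the 72 cells with more had 1988 CPM (95% CI, 1823–2165) and 674 CPM (95% CI, 579–780.0). *Fth1* was alike in both (8917 and 8549 CPM). Of the 504 cells with more than 5% hemoglobin in the day 7 library, 370 had fewer than 500 genes and were left out. With no limits on genes in these cells and in the *Ptprc*-positive cells, the log2 ratio of *Tfrc* was 2.46. A UMI of *Ptprc* was present in 38 of the 127 cells, and the neutrophil markers summed to 30516 CPM in them. The part of doublets or free RNA in these values was not tested.

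The *Ptprc*-positive cells were split by markers. The 88 cells with at least 3 of the 6 macrophage markers had 161 CPM of *Hmox1* (95% CI, 137–188), the highest of any group, with 172 CPM of *Slc40a1* (95% CI, 147–200). The 192 cells with at least 2 of the 4 B lineage markers had only 12.3 CPM of *Slc40a1* (95% CI, 7.61–18.8) and 2.93 CPM of *Hmox1*, but 104 CPM of *Tfrc* (95% CI, 89.4–121) and 18.1 CPM of *Slc11a2*. The 6290 cells with neither list had 139 CPM of *Slc40a1* and 18.1 CPM of *Tfrc*. *Slc39a14* was 4.68 CPM in the B lineage-marked cells and 4.54 CPM in the cells with neither list.

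Most *Ptprc*-positive cells carried neither list, and these 6290 cells were divided by neutrophil granule genes. Cells with at least 1000 CPM of *Elane*, *Mpo*, and *Prtn3*, made early in neutrophil maturation, numbered 343, and of the others 2614 had at least 10000 CPM of *Ngp*, *Camp*, and *Ltf*, made later. *Tfrc* was 53.2 CPM (95% CI, 46.1–61.2) in the first group, 17.2 CPM in the second, and 11.3 CPM (95% CI, 9.67–13.1) in the 3333 cells with neither. *Slc40a1* had the reverse order, with 84.3, 126, and 177 CPM. *Ncoa4* was highest in the second group, at 202 CPM (95% CI, 197–208) against 120.3 and 71.2 CPM. *Fth1* was 1269, 1290.1, and 3979 CPM and *Ftl1* 1635, 1323, and 3196 CPM, so both ferritin chains were highest in the cells with neither set. These groups and their cuts were chosen after values had been seen, and the 3 groups differed in depth, with medians of 3214, 8316, and 3571 UMIs.

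**Figure D5:**
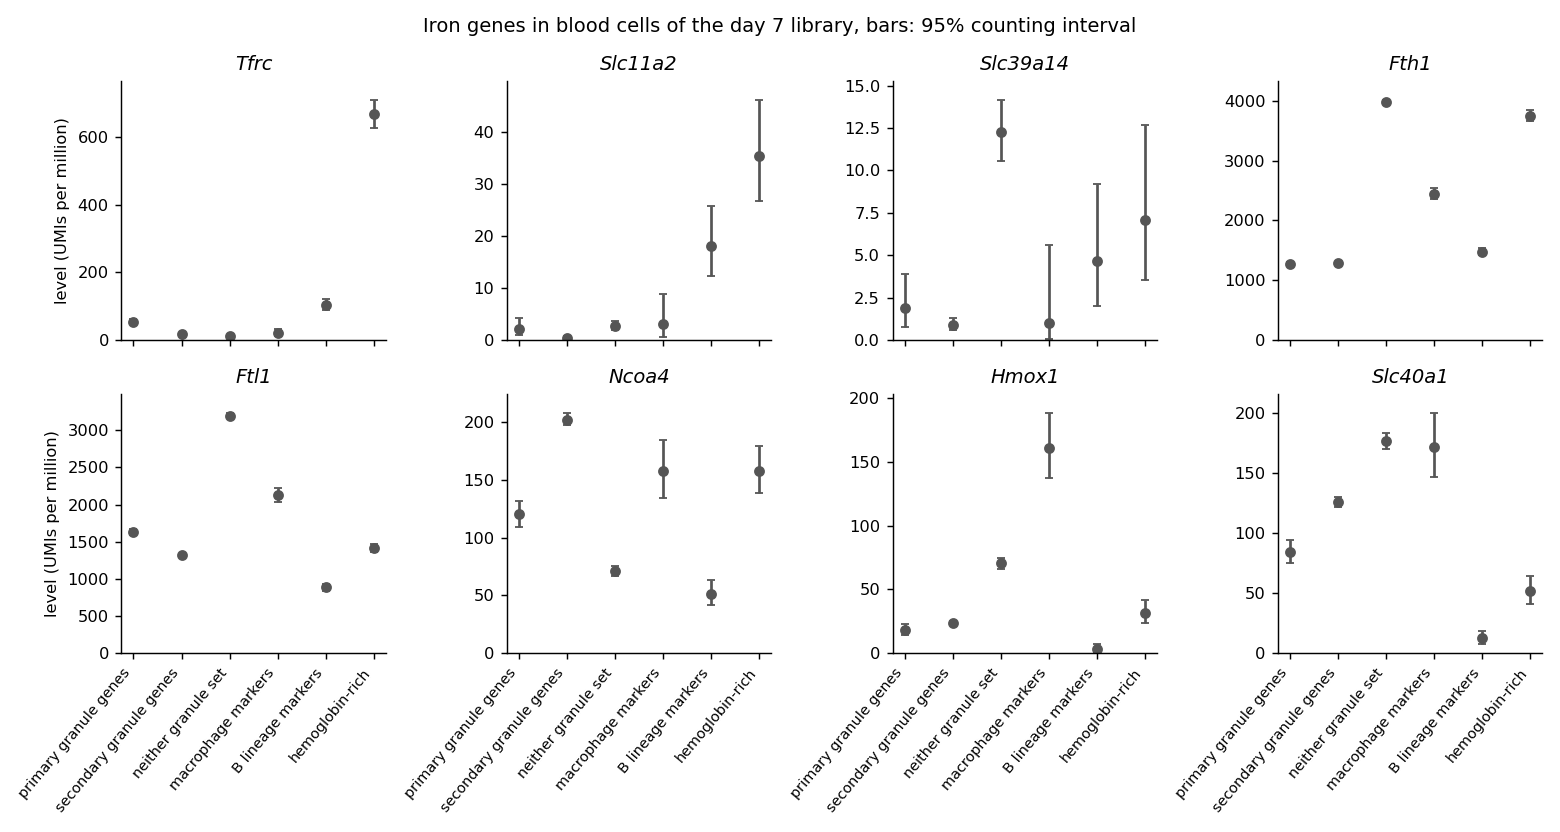
Level of each member in CPM (linear axis from 0) in 6 groups of blood cells of the day 7 library, with exact Poisson 95% intervals over 1 library. *Tfrc* and *Slc11a2* are highest in hemoglobin-rich cells (667 and 35.5 CPM), *Hmox1* in macrophage-marked cells (161 CPM), and *Ncoa4* in cells with secondary granule genes (202 CPM) on this scale, whose total includes hemoglobin.

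The 447 other cells of day 7 within the limits, with no *Ptprc* UMI, had 151 CPM of *Slc39a14* (95% CI, 140.1–162) and 95.8 CPM of *Hmox1* (95% CI, 87.3–105). Both were above the 10 class levels of the later days. *Slc40a1* was 38.4 CPM and *Tfrc* 38.2 CPM. These cells were not divided by class, and a difference from the later days cannot be told apart from a difference in cell makeup.

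A list of 54 other iron and heme genes gave the wider pathway. Of those past the 5 CPM filter, 1 was higher and 3 were lower past 2-fold of 34 in *Matn4*-high against *Aspn*-high cells at day 10, and 1 was higher and 0 were lower of 32 at day 14. In *Cnmd*-high cells 2 were higher and 4 lower of 33, and 2 higher and 7 lower of 34. In *Col10a1*-high cells 6 were higher and 6 lower of 36, and 4 higher and 5 lower of 33. In *Ifitm5*-high cells 1 was higher and 4 lower of 35, and 1 higher and 5 lower of 35. The share of all genes past 2-fold in these comparisons was 7.87% to 28.9%, as given above for each class. The median log2 ratio of the list lay between -0.53 and 0.12.

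Named genes of the list were past 2-fold in the same direction on both days. *Steap3*, a ferrireductase that prepares endosomal iron for *Slc11a2*, was highest in *Aspn*-high cells (80.6 and 64.6 CPM). It was 25.0 and 24.9 CPM in *Cnmd*-high cells, 15.7 and 15.5 CPM in *Ifitm5*-high cells, and 1.62 and 2.26 CPM in *Col10a1*-high cells. *Steap4*, a related metalloreductase, had the reverse place, with 53.3 and 46.3 CPM in *Col10a1*-high cells and 2.60 and 1.31 CPM in *Aspn*-high cells. The class lowest for *Slc40a1* and *Slc11a2* was thus also lowest for *Steap3*.

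*Bmp6*, a ligand that raises hepcidin in the liver and is also a bone morphogenetic protein, stood at 70.4 and 55.2 CPM in *Col10a1*-high cells and at 2.27 and 1.67 CPM in *Aspn*-high cells. *Flvcr2*, a membrane transporter of the FLVCR family, was 20.5 and 19.0 CPM in *Cnmd*-high cells and 21.1 and 18.4 CPM in *Ifitm5*-high cells, against 0.650 and 0.836 CPM (2 and 7 UMIs) in *Aspn*-high cells. *Hp*, which encodes the hemoglobin scavenger haptoglobin, was 420.0 and 320 CPM in *Aspn*-high cells. It was 17.8 and 11.0 CPM in *Col10a1*-high cells and 7.58 and 30.4 CPM in *Ifitm5*-high cells. *Steap2* was 18.2 and 24.2 CPM in *Aspn*-high cells and 5.14 and 5.22 CPM in *Ifitm5*-high cells. No listed gene of *Matn4*-high cells met the rule on both days.

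In hemoglobin-rich against *Ptprc*-positive cells, 11 of the 32 listed genes past the filter were higher and 17 lower, where 65.1% of all genes passed 2-fold. The 4 largest were genes of heme synthesis or breakdown. *Alas2* was at 1124 CPM against 0.974 CPM. *Fech*, which puts iron into heme, was at 571 against 6.36 CPM, *Abcb10*, a mitochondrial transporter needed for heme synthesis, at 323 against 7.55 CPM, and *Blvrb*, a biliverdin reductase, at 1181 against 22.5 CPM. These genes are part of what erythroid cells are known by, so they describe the cells.

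Genes with the most similar pattern were sought by Pearson correlation of log2(CPM + 10) over 13 classes and days, blood cells included, among 8241 genes. The points share libraries, and r is given as a description. *Slc40a1* was most like *AU020206* (r = 0.889), *Rflnb* (0.849), and *Ssbp2* (0.833), and *Tfrc* most like *Slc1a5* (0.918), *Slc14a1* (0.898), and *Yod1* (0.890). *Ncoa4* was most like *Dck* (0.992), *Slc16a6* (0.988), and *Emilin2* (0.986), and *Slc39a14* most like *Rpl39l* (0.982), *Bcar1* (0.977), and *Sdk2* (0.974). For the others the first gene was *Cdr2* for *Slc11a2* (0.965), *Babam1* for *Ftl1* (0.937), *Cdkn2c* for *Fth1* (0.850), and *Aldh9a1* for *Hmox1* (0.824). Over the 10 marker classes and days alone, among 6784 genes, the lists differed: *Slc40a1* was most like *Setbp1* (0.966), *Kmt2c* (0.965), and *Snrpg* (0.959), and *Tfrc* most like *Atp6v0a4* (0.951), *Gas5* (0.938), and *Matn4* (0.935). The *Matn4*-high classes were chosen by *Matn4*, so its own place in that list is in part set by the rule.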

How the data were processed

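The authors sorted callus cells, made 10x Genomics 3′ libraries, and ran Cell Ranger for alignment and UMI collapse. The submitters' processing notes give version 3.0 and build mm10, and the deposited matrix headers give 3.1.0. The deposited values are whole-number UMI counts for each gene and barcode, without normalization or limits on cells, for 9103, 8801, and 12984 barcodes at day 7, day 10, and day 14. Within the limits, the libraries held 55187609, 113618580, and 154573230 UMIs. No doublet caller was run, and doublets were limited only by the upper limit of 5000 genes. Counts were summed per class and library, and intervals came from the exact Poisson and Clopper-Pearson methods. Shares used cells thinned to 2000 UMIs, which left out 1 to 8 cells per marker class and day, 382 of 6570 *Ptprc*-positive cells, and 10 of 127 hemoglobin-rich cells of day 7. The members, lists, and classes were chosen with earlier results of these data known. Besides the members, text names listed genes past 2-fold in the same direction on both days, at most 4 per class by mean log2 ratio (the same at day 7 for hemoglobin-rich cells), and the 3 genes closest in pattern to a member. Gene positions and UTRs came from GENCODE M21 on GRCm38, which held 32235 of the 32285 deposited gene identifiers (99.8%). Python 3.11.15, numpy 2.4.6, scipy 1.17.1, pandas 2.3.3, and matplotlib 3.10.9 were used. Alternatives changed the limits, cuts, scaling, weighting, and depth. The split of neutrophil granule genes, the split by hemoglobin share, and the pattern search over marker classes alone were added after seeing the data.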

Additional observations from a re-analysis of the deposited data

Results flagged for a closer look

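*Fth1* in *Col10a1*-high against *Aspn*-high cells had opposite directions on the 2 days: the log2 ratio was -0.23 (95% CI, -0.27 to -0.19) at day 10 and 0.28 (95% CI, 0.25 to 0.31) at day 14, a difference of 0.51. The difference between the days was not tested, since each day is 1 library. All alternatives kept the sign on each day. The levels behind it were 2155 and 2753 CPM in *Col10a1*-high cells and 2529 and 2268 CPM in *Aspn*-high cells.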

How the results depend on the processing

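No paired analysis was possible because each day is 1 library with no replicate number. The *Slc40a1* log2 ratio of *Cnmd*-high to *Aspn*-high cells (0.22) was 0.53 with median-of-ratios scaling, 0.38 with mitochondrial, ribosomal, hemoglobin, and collagen genes left out of the total, 0.43 as a mean over cells, and 0.66 in thinned cells. The *Tfrc* ratio of these classes (2.27) was 3.76 in thinned cells, where *Aspn*-high cells hold few *Tfrc* UMIs. The *Tfrc* ratio of hemoglobin-rich to *Ptprc*-positive cells (4.98) was 5.64, 6.32, and 5.44 under the first 3 choices named for *Slc40a1*. It was 2.46 with no limits on genes in either group, 4.70 with over 50% hemoglobin, and 5.29 without *Ptprc* UMIs. *Slc11a2* in *Col10a1*-high against *Aspn*-high cells at day 14 (-1.41) turned to 0.0703 in thinned cells. The *Tfrc* ratio of hemoglobin-rich cells is left out of the counts that follow. The other directions of the 19 values past 2-fold held in all their alternatives, and 11 of the 19 stayed past it in all. Of the 16 such values against *Aspn*-high cells 10 did, and of the 48 below 2-fold 35 stayed below. Median-of-ratios scaling shifted every log2 ratio of a comparison by the same amount, 0.07 to 0.33 against *Aspn*-high cells and 0.66 in hemoglobin-rich cells. At the 90th percentile the *Ifitm5* cut was 0, so only the minimum of 3 UMIs applied.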
